A study of Mus musculus with 4 samples.

Results

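The cells described are those of the mouse brain that carried neutrophil transcripts, 240 of 54754 cells that passed quality limits (0.438%), of 59429 cells in the deposited matrices. They were selected on measured values. A kept cell had 200 to 6000 detected genes and at most 10% mitochondrial UMIs (unique molecular identifiers, which count captured RNA molecules). A member had a UMI of at least 3 of the 5 markers S100a8, S100a9, Retnlg, Csf3r and Cxcr2, and of at most 1 of C1qa, C1qb and P2ry12 (microglia), Cd79a (B cells) and Cd3e (T cells). By library, 15 members came from sham, 41 from day 1, 151 from day 3 and 33 from day 7.

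The study followed the brain through ischemia and reperfusion with droplet single-cell RNA-seq (10x Genomics). Male C57/BL6 mice, labelled as 8 weeks old, underwent transient middle cerebral artery occlusion (tMCAO), in which the artery is blocked and then reopened, or a sham operation, and no genetic alteration is named. The ipsilateral hemisphere was taken on day 1, 3 or 7 after tMCAO, and the series text places the sham library on day 7. Mice were perfused with cold saline, and cells were released with papain and spun through Percoll without a sort. Each condition had 1 library, the number of mice behind each is not given in the sources used here, and every difference below compares libraries, with no test.

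Neutrophils are short-lived granulocytes made in the bone marrow, and the healthy brain parenchyma holds hardly any. They carry the growth factor receptor CSF3R and are among the early leukocytes to reach ischemic tissue, guided by chemokines that bind CXCR2. Their granules are filled in sequence during maturation, azurophil granules at the promyelocyte stage, specific granules later and gelatinase granules last, so that granule transcripts fade as a neutrophil leaves the marrow and ages.

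The libraries held 69392755 to 104023002 UMIs, and the kept cells 3178 to 5493 UMIs at the median. Across libraries, 356 barcodes occurred more than once, 6 members had a barcode that also occurred in another library, and 0 barcodes were shared between members. Scrublet marked 3 members of day 1 and 2 of day 7 as doublets, and these were kept. Members of day 1 were shallow, with a median of 1410 UMIs against 3571 in sham, 5592 on day 3 and 4036 on day 7.

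Many members also carried transcripts of other cell classes. With lists of 4 to 7 markers for each of 14 other classes, 127 of 240 members (52.9%) had a UMI of at least 3 markers of another class. Endothelial markers were met in 112 members, mural markers in 87, oligodendrocyte markers in 83 and choroid or ependymal markers in 67, while microglial markers were met in 2 and monocyte markers in 7. Such mixed cells numbered 2 of 15 members in sham, 14 of 41 on day 1, 101 of 151 on day 3 and 10 of 33 on day 7. Day 3 thus held most of them, with 66.9% of its members. Those 101 cells drew a median of 0.833% of their UMIs from the 5 markers, 82 of them met exactly 3 of the markers, and they showed a median of 3 of 12 further neutrophil markers (such as Ly6g, Mmp8, Mmp9 and Trem1) that the rule did not use. Other mixed members carried more neutrophil transcripts. Both sham cells met all 5 markers, and mixed cells with under 5% of UMIs from the markers numbered 0 of 2 in sham, 7 of 14 on day 1, 91 of 101 on day 3 and 6 of 10 on day 7.

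Other cells also held more transcripts of the rule marker S100a8 and of the granule gene Ngp, which the rule did not use, on day 3. Levels are given as CPM, the UMIs of a gene in each 1000000 UMIs of a group of cells. In all kept cells other than members, S100a8, a calcium-binding alarmin, stood at 2.61 CPM in sham, 11.4 CPM on day 1, 99.5 CPM on day 3 and 2.05 CPM on day 7. Ngp stood at 0.0203 CPM on day 1, 7.14 CPM on day 3 and 0.0384 CPM on day 7 in the same cells. The S100a8 values and the counts that follow use genes of the rule and are a description only. Among cells with at least 4 of 6 endothelial markers and at most 1 excluded gene, the rule was met by 1 of 6180 in sham, 9 of 8053 on day 1, 92 of 6895 on day 3 and 8 of 10654 on day 7. That share was 1.33% on day 3 and at most 0.112% in the other libraries. The part of free RNA and of doublets in the mixed members was not tested.

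At the edge of the rule, the 85 day 3 members with exactly 3 markers had a median of 0.716% of UMIs from the 5 markers, and the 141 day 3 cells just outside it, with exactly 2, had 0.0395%. Of these, 82 and 138 were mixed. On day 1, 18 members had exactly 3 markers, with a median of 3.95%, and 15 cells had exactly 2, with 1.15%. The excluded genes kept out 4 further cells of day 1 and 23 of day 3.

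The remaining 113 members, called single-class members here, were 13 sham, 27 day 1, 50 day 3 and 23 day 7 cells. In them the 5 markers made up a median of 25.4% of UMIs in sham, 11.6% on day 1, 37.7% on day 3 and 29.8% on day 7. All 5 markers were met in 13 of 13, 2 of 27, 40 of 50 and 17 of 23 cells. Of the 12 further neutrophil markers, which are independent of the rule, the median cell had 9, 5, 11 and 9 in the same order. Day 1 stood lowest on each of these measures, and 11 of its 27 cells had under 5% of UMIs from the 5 markers, against 0, 2 and 0 cells in sham and on days 3 and 7. Its single-class cells were also the shallowest, with a median of 1216 UMIs against 3376, 5548.5 and 3405. A shallow cell meets 3 markers of another class less easily, so the mixed call may set apart fewer such cells on day 1, which was not tested. Gene levels below are those of single-class members. Values in the 16 day 1 cells above the 5% line are given for a part of the genes and lists. The order of libraries may turn in those cells for others.

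**Figure D1:**
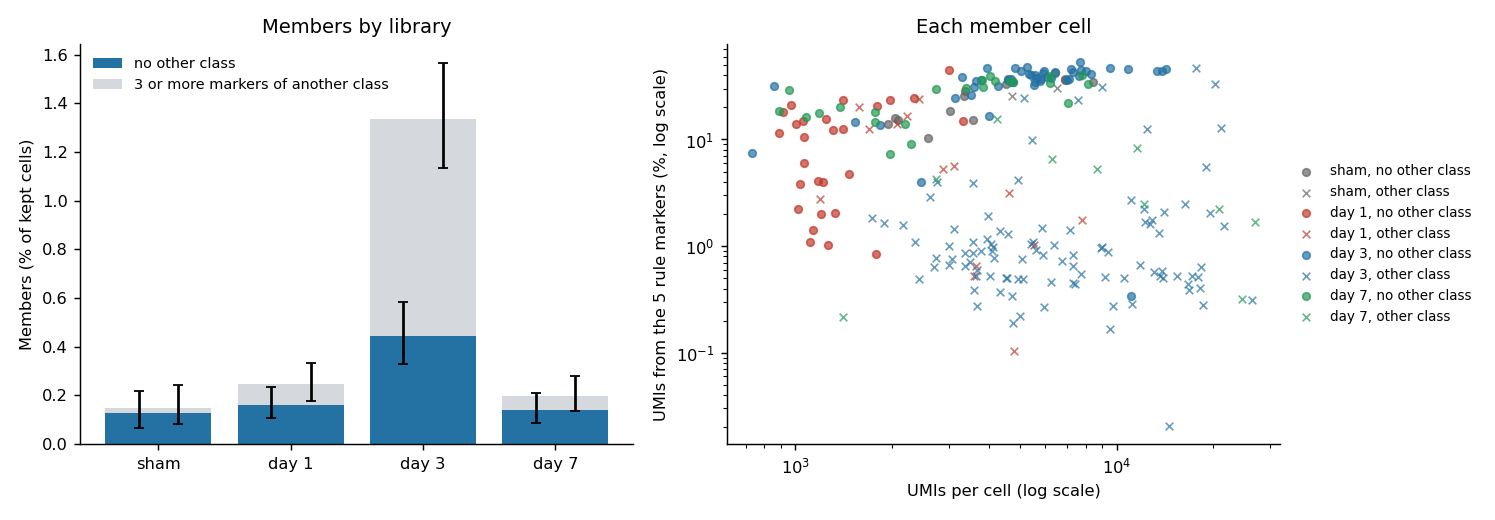
The left panel shows members as a percentage of kept cells in each library, with single-class members in blue, mixed members in grey and 95% exact binomial intervals for the single-class share (left bar) and for all members (right bar). The right panel shows UMIs per cell against the percentage of UMIs from the 5 rule markers for each of the 240 members, and the mixed day 3 cells (crosses) lie mostly near 1% while most single-class day 3 cells lie above 30%.

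As a share of kept cells, members made up 0.147% of sham (0.0824 to 0.243), 0.245% of day 1 (0.176 to 0.333), 1.34% of day 3 (1.13 to 1.57) and 0.199% of day 7 (0.137 to 0.280). Intervals here and below are exact 95% intervals (Clopper-Pearson for shares, Poisson for levels, conditional for ratios) and cover counting error only, not the spread between mice. For levels and ratios of levels they also leave out the spread between cells. Single-class members gave 0.128% (0.0679 to 0.218), 0.162% (0.106 to 0.235), 0.443% (0.329 to 0.583) and 0.139% (0.0881 to 0.208) in the same order. The day 3 library held 9.08 times the sham share by all members (5.33 to 16.6) and 3.47 times by single-class members (1.86 to 6.96). Single-class shares on days 1 and 7 were 1.27 (0.631 to 2.67) and 1.09 times (0.529 to 2.34) that of sham, and both intervals include 1. In both counts day 3 was the only library whose interval lay above those of the other 3.

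Among the genes ranked furthest above day 1 on both later days were the specific granule genes Ngp (neutrophilic granule protein), Camp (the cathelicidin antimicrobial peptide) and Ltf (lactoferrin, which binds iron). In the GENCODE vM21 annotation of GRCm38 all 3 lie on chromosome 9, Camp at chr9:109847379-109849617, - strand, Ngp at chr9:110419747-110423012, + strand and Ltf at chr9:111019271-111042767, + strand. Their promoter windows of 300 bases (250 before to 50 after the RefSeq start, GRCm38.p6, gene strand) are shown because these transcripts were low together on day 1, with matches to TTGCNNAA, a loose form of the site bound by C/EBP factors, in capitals (searched on both strands, so also as TTNNGCAA).
Ngp: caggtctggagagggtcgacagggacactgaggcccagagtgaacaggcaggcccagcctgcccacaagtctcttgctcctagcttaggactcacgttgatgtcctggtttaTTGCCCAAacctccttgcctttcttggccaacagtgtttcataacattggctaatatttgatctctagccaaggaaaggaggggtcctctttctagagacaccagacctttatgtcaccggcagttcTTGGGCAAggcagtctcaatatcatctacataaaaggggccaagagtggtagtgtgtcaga
Camp: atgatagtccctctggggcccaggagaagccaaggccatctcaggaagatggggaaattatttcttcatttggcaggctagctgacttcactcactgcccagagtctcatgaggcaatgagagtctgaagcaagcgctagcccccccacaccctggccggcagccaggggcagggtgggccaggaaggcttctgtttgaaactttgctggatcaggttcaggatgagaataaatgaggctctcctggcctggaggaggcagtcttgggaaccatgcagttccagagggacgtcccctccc
Ltf: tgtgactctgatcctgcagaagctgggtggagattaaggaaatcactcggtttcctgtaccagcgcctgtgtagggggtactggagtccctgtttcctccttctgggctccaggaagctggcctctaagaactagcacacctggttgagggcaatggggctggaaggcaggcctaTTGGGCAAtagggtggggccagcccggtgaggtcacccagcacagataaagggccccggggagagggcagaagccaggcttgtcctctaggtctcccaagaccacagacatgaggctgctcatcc
The windows are chr9:110419558-110419857 (+ strand) for Ngp, chr9:109849407-109849706 (- strand) for Camp and chr9:111019042-111019341 (+ strand) for Ltf. Ngp held matches that began 138 and 11 bases before the start, Ltf held 1 that began 75 bases before it, and the Camp window held 0. Of the other specific granule genes searched, Lcn2 held 1 match, Fcnb 2 and Chil3 0. Of all 32851 promoter windows of this length, 10.8% held a match. A match describes letters in the window and is not a measured site.

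Between days, genes with at least 100 CPM in either library and at least 20 UMIs over both were ranked by log2 ratio of CPM, with 50 CPM added to each side. Of 1224 genes ranked for day 3 against day 1 in single-class members, 112 were past 2-fold higher (9.15% of those ranked) and 303 past 2-fold lower (24.8%), with a median log2 ratio of -0.46 over all ranked genes. Of 727 genes ranked for day 7 against day 1 in single-class members, 118 were past 2-fold higher (16.2% of those ranked) and 182 past 2-fold lower (25.0%), with a median log2 ratio of -0.17 over all ranked genes. Of 1164 genes ranked for day 7 against day 3 in single-class members, 110 were past 2-fold higher (9.45% of those ranked) and 50 past 2-fold lower (4.30%), with a median log2 ratio of 0.27 over all ranked genes. All members gave 158 higher (8.90%) and 230 lower (13%) of 1775 for day 3 against day 1, 170 higher (9.71%) and 150 lower (8.57%) of 1750 for day 7 against day 1, and 134 higher (7.99%) and 104 lower (6.20%) of 1678 for day 7 against day 3. The 5 rule markers took 14.1% of all single-class UMIs on day 1 and 38.3% on day 3 (29.5% in sham, 30.4% on day 7). With ratios centred on their median, the single-class counts were 186 higher and 118 lower for day 3 against day 1, 137 higher and 150 lower for day 7 against day 1, and 44 higher and 86 lower for day 7 against day 3. The same centring over all members gave 218 higher and 136 lower for day 3 against day 1, 214 higher and 122 lower for day 7 against day 1, and 125 higher and 111 lower for day 7 against day 3. Directions of lists that turn under such centring are named with the list, and counts within a list are to be read against the shares of all ranked genes given here.

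With 13 single-class cells, sham was not ranked, as a group needed at least 20. The 15 genes with the widest gap between single-class members and all other kept cells in every ranked library were, beyond the rule markers, Il1b (interleukin-1 beta), Wfdc21 and Slpi (protease inhibitors of the whey acidic family), Hp (haptoglobin), Cd52, Cxcl2 (a CXCR2 ligand), Wfdc17, Mmp9 (gelatinase B), Alox5ap (needed for leukotriene synthesis), G0s2, Rac2, Gm5483, Tyrobp, Spi1 (the transcription factor PU.1) and Gmfg. Mmp9 stood at 2141 CPM in sham, 1351 CPM on day 1, 1213 CPM on day 3 and 2079 CPM on day 7, and all other kept cells at 0.192 to 1.17 CPM. Wfdc21 stood at 2740.4 CPM in sham, 2156 CPM on day 1, 6226 CPM on day 3 and 4146 CPM on day 7 (3352 CPM in the 16 day 1 cells above the 5% line), with all other cells between 0.0256 and 3.10 CPM. Spi1 stood at 980.0 CPM in sham, 1169 CPM on day 1, 1061 CPM on day 3 and 802 CPM on day 7, against 8.89 to 28.6 CPM in other cells. Above the 5% line Spi1 stood at 1050 CPM on day 1 and 1094 CPM on day 3. The markers of border macrophages, dendritic cells and mast cells or basophils had 0 UMIs in single-class members of every library, and Mki67 and Top2a, markers of dividing cells, had 0 too.

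Among rule markers, whose levels the rule used and which are given as a description only, S100a8 stood at 120849 CPM in sham, 66277 CPM on day 1, 187263 CPM on day 3 and 135701 CPM on day 7 and S100a9, its partner in calprotectin, at 141955 CPM in sham, 64354 CPM on day 1, 171170 CPM on day 3 and 142181 CPM on day 7. Retnlg, a resistin-like secreted protein, stood at 30289 CPM in sham, 8132 CPM on day 1, 23811 CPM on day 3 and 24244 CPM on day 7. It had a UMI in 13 of 13 sham, 7 of 27 day 1, 49 of 50 day 3 and 23 of 23 day 7 cells. Csf3r stood at 1161 CPM in sham, 1351 CPM on day 1, 644 CPM on day 3 and 766 CPM on day 7, and Cxcr2 at 726 CPM in sham, 389.7 CPM on day 1, 397 CPM on day 3 and 657 CPM on day 7.

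Azurophil granule genes came almost wholly from a single cell. Mpo, Elane, Prtn3, Ctsg and Ms4a3, which encode myeloperoxidase, the serine proteases of the primary granule and a marker of their progenitors, had 0 UMIs in single-class members of sham, day 1 and day 7. On day 3 Elane had 379 UMIs, Mpo 79 and Ctsg 81, all from 1 cell, which also gave 99.3% of the 293 Prtn3 UMIs. That cell had under 5% of its UMIs from the 5 markers, and the 48 day 3 cells above that line had 2 UMIs of the list.

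Camp, Ngp, Ltf and Lcn2, genes of the specific granule, were lower on day 1 than on days 3 and 7. The summed level of Ltf, Camp, Ngp, Lcn2, Fcnb and Chil3 was 14392 CPM (13407 to 15429) in sham, 4858 CPM (4187 to 5607) on day 1, 24800.5 CPM (24236 to 25375) on day 3 and 29302 CPM (28144 to 30496) on day 7. Ngp stood at 4446 CPM in sham, 52.0 CPM on day 1, 9019 CPM on day 3 and 8742 CPM on day 7, from 245, 2, 2661 and 719 UMIs, so that day 1 lay far below the other 3 libraries. The day 3 level was 174 (48.0 to 1434) times that of day 1. Camp had 0 UMIs on day 1 and stood at 2486 CPM in sham, 4484 CPM on day 3 and 6760.1 CPM on day 7. Against 3 UMIs on day 1, Camp was at least 57.5-fold higher on day 3 and at least 86.7-fold higher on day 7. Ltf, with 0 UMIs on day 1, stood at 581, 722 and 2578 CPM in sham, on day 3 and on day 7, and was at least 9.26-fold and 33.1-fold higher on days 3 and 7 than 3 UMIs on day 1. Lcn2 (lipocalin 2, which withholds iron from bacteria) stood at 6769 CPM in sham, 3793 CPM on day 1, 10259.8 CPM on day 3 and 10262 CPM on day 7, a day 3 to day 1 ratio of 2.70 (2.29 to 3.22). Other cells held Lcn2 as well, at 25.7 CPM in sham, 64.5 CPM on day 1, 1347 CPM on day 3 and 119 CPM on day 7.

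These transcripts were spread unevenly over cells. The 2 cells with the most UMIs of the list gave 351.0 and 240.0 of 793.0 UMIs in sham, 33.0 and 33.0 of 187.0 on day 1, 1874.0 and 1480.0 of 7317.0 on day 3, and 707.0 and 522.0 of 2410.0 on day 7. Without those 2 cells of each library, an alternative chosen after seeing the data, the list stood at 5016 CPM in sham, 3762 CPM on day 1, 14842 CPM on day 3 and 17004 CPM on day 7. Most of the gap between sham and day 1 thus lay in 2 sham cells, while day 3 and day 7 remained 3.95 (3.29 to 4.77) and 4.52 (3.75 to 5.496) times day 1. Fcnb, ficolin B, had 3 UMIs on day 3 and 0 in the other libraries. Ngp was met in 6 of 13 sham, 2 of 27 day 1, 31 of 50 day 3 and 9 of 23 day 7 cells. The cell with the most Camp gave 63.4% of its UMIs on day 3 and 36.7% on day 7, and without that cell of day 3 the log2 ratio of day 3 over day 1 went from 6.50 to 5.15. With every cell thinned to 1000 UMIs, Ngp was met in 4 of 13 cells in sham (30.8%, 9.09 to 61.4), 2 of 24 cells on day 1 (8.33%, 1.03 to 27.0), 22 of 48 cells on day 3 (45.8%, 31.4 to 60.8) and 7 of 21 cells on day 7 (33.3%, 14.6 to 57.0). Endothelial-marker cells thinned the same way held Ngp in at most 0.0971% of cells. Chil3, a chitinase-like protein also made by monocytes and macrophages, went another way within the list, at 109 CPM in sham, 1013 CPM on day 1, 305 CPM on day 3 and 961 CPM on day 7. On this list, of 5 ranked genes 4 were past 2-fold higher and 1 past 2-fold lower on day 3 than on day 1 (median log2 ratio 3.95), and of 5 ranked genes 4 were past 2-fold higher and 0 past 2-fold lower on day 7 than on day 1 (median log2 ratio 5.72). The summed day 7 to day 3 ratio of 1.18 (1.13 to 1.24) turned to 0.978 with median centring. In the 16 day 1 cells above the 5% line, Ngp stood at 40.4 CPM, Camp and Ltf had 0 UMIs, and the list stood at 6542 CPM. Over all members, the mixed cells included, the day 3 to day 1 ratio of the list was 3.79 (3.37 to 4.28) against 5.10 (4.41 to 5.93) in single-class members.

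The gelatinase granule list (Mmp8, Mmp9, Mmp25, Slc11a1, Hp, Pglyrp1 and Adam8) was also lowest on day 1 as a sum, though Mmp9, gelatinase B, was not. Its name is a label for the list and does not assign each gene to a single granule class. Ly6g and Cd177 had no UMI on day 1. The summed gelatinase list was 8747 CPM (7984 to 9564) in sham, 4625 CPM (3970.1 to 5356) on day 1, 8274 CPM (7949 to 8608) on day 3 and 9727 CPM (9064 to 10425) on day 7. Mmp8, neutrophil collagenase, stood at 1615 CPM in sham, 286 CPM on day 1, 1352 CPM on day 3 and 2237 CPM on day 7, 4.73 (2.62 to 9.56) times as high on day 3 as on day 1. Mmp9, at 1351 CPM on day 1 and 1213 CPM on day 3, had a ratio of 0.898 (0.670 to 1.23). In cells above the 5% line it stood at 1575 CPM on day 1 and 1272 CPM on day 3. Pglyrp1, a peptidoglycan-binding protein, stood at 1887 CPM in sham, 727 CPM on day 1, 2173 CPM on day 3 and 2116 CPM on day 7, and Hp at 2323 CPM in sham, 1741 CPM on day 1, 3112 CPM on day 3 and 2699 CPM on day 7. Ly6g, the antigen by which mouse neutrophils are usually sorted, had 41 UMIs in sham, 0 on day 1, 190 on day 3 and 36 on day 7. Its levels were 744 CPM in sham, 0 CPM on day 1, 644 CPM on day 3 and 438 CPM on day 7, where 3 UMIs on day 1 would be 77.9 CPM. Cd177, a surface glycoprotein of mature neutrophils, had 0 UMIs on day 1 and stood at 199.6, 302 and 547 CPM in sham, on day 3 and on day 7. Among the 12 further neutrophil markers, of 12 ranked genes 4 were past 2-fold higher and 1 past 2-fold lower on day 3 than on day 1 (median log2 ratio 0.20). Their summed day 3 to day 1 ratio was 1.48 (1.34 to 1.63) in single-class members and 0.772 (0.712 to 0.837) over all members. The lower 1 of the list was Il1r2, the decoy receptor for interleukin-1, at 436 CPM in sham, 1611 CPM on day 1, 613 CPM on day 3 and 766 CPM on day 7. The gelatinase ratio of day 7 over day 3, 1.18 (1.08 to 1.27), and that of the further markers, 1.13 (1.07 to 1.20), turned to 0.973 and 0.937 with median centring. The share of UMIs from the choroid or ependymal list, a measure of transcripts from other cells, was highest on day 1, at 4443 CPM against 632 to 1179.5 CPM in the other libraries, and its part in these differences was not tested.

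**Figure D2:**
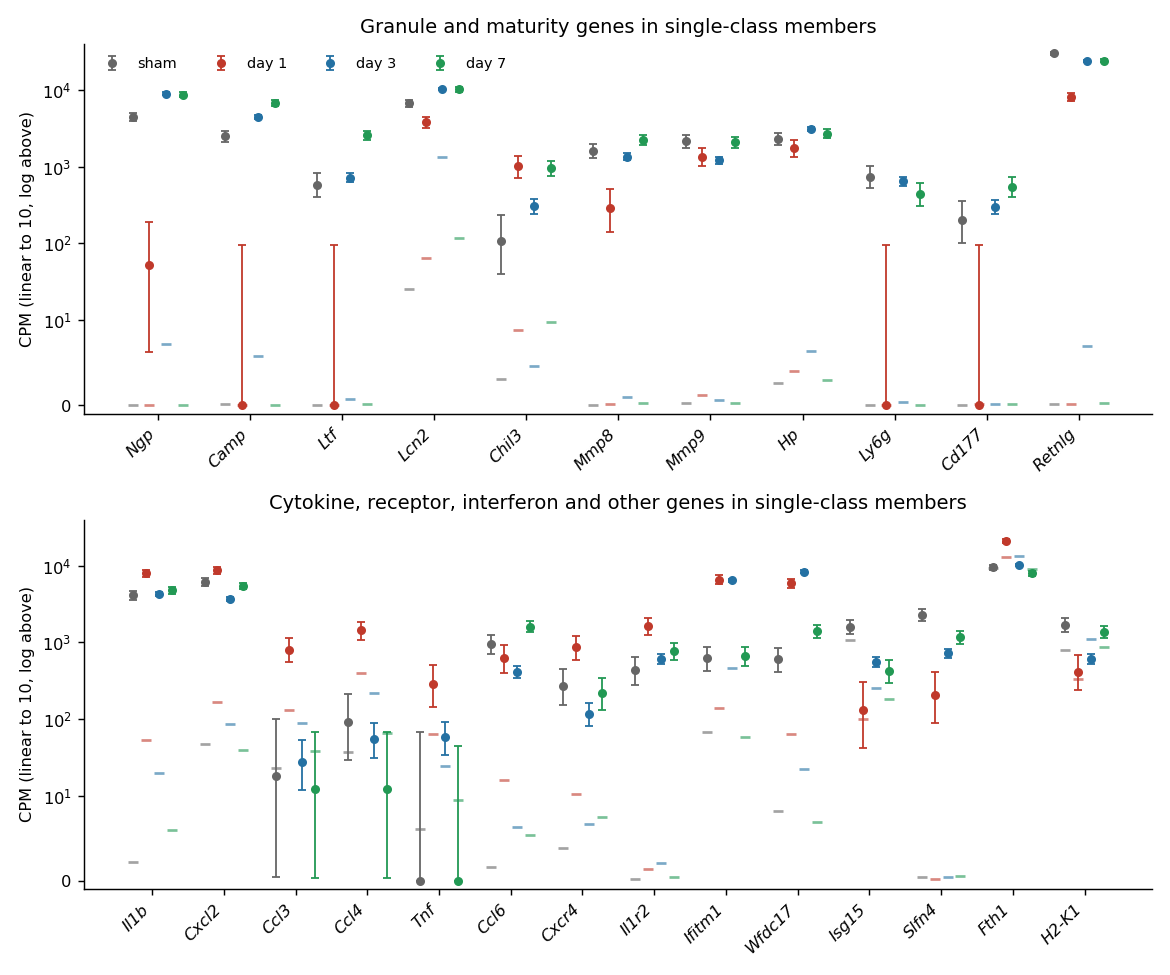
Levels of selected genes in single-class members (points, CPM, axis linear to 10 and logarithmic above, bars are exact 95% Poisson intervals) and in all other kept cells of the same library (dashes). Ngp, Camp and Ltf were at or near 0 on day 1 and at 581 to 9019 CPM in the other libraries, while Ccl3, Ccl4 and Cxcr4 had their highest points on day 1.

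The summed list of protease inhibitors (antiproteases), which also holds Anxa1, was highest on day 3. It stood at 9509.6 CPM (8713 to 10359.8) in sham, 11536 CPM (10487 to 12660) on day 1, 20221 CPM (19712 to 20741) on day 3 and 11769 CPM (11039.6 to 12535) on day 7. Wfdc17 stood at 599 CPM in sham, 5872 CPM on day 1, 8365 CPM on day 3 and 1398 CPM on day 7, so that days 1 and 3 lay well above sham and day 7. Day 1 was 9.80 (6.78 to 14.6) times sham, day 3 was 14.0 (9.92 to 20.3) times sham and day 7 was 2.33 (1.57 to 3.55) times sham. In monocyte-marker cells, Wfdc17 stood at 503 CPM in sham, 4277 CPM on day 1, 1463 CPM on day 3 and 365 CPM on day 7. Members of day 1 above the 5% line held 8440.0 CPM and those of day 3 8753 CPM. Slpi, secretory leukocyte protease inhibitor, was highest in sham, at 4337 CPM in sham, 1923 CPM on day 1, 2305 CPM on day 3 and 2578 CPM on day 7, with 2827 CPM in the 16 day 1 cells above the 5% line. Anxa1, annexin A1, which is known for limiting neutrophil recruitment, stood at 1307 CPM in sham, 572 CPM on day 1, 2122 CPM on day 3 and 2116 CPM on day 7. In this list, of 9 ranked genes 5 were past 2-fold higher and 1 past 2-fold lower on day 3 than on day 1 (median log2 ratio 1.37), and of 8 ranked genes 1 was past 2-fold higher and 1 past 2-fold lower on day 7 than on day 3 (median log2 ratio -0.02). The higher day 1 level relative to sham, 1.21 (1.07 to 1.38), became 0.995 when the 5 rule markers were left out of the totals, and the 16 day 1 cells above the 5% line held 16234 CPM of the list. Stefin genes of the list (Stfa1, Stfa2, Stfa2l1, Stfa3 and BC100530) are close copies of each other, so their counts are uncertain.

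Cytokine and chemokine transcripts were highest on day 1 and lowest on day 3. The summed list was 11959.6 CPM (11064 to 12909) in sham, 20681 CPM (19269 to 22169) on day 1, 8809 CPM (8474 to 9154) on day 3 and 12414 CPM (11664 to 13199) on day 7. Il1b stood at 4083 CPM in sham, 7924 CPM on day 1, 4250.4 CPM on day 3 and 4790.4 CPM on day 7, and day 3 was 0.536 (0.473 to 0.610) times day 1. Cxcl2 stood at 6134 CPM in sham, 8756 CPM on day 1, 3728 CPM on day 3 and 5471 CPM on day 7, with a day 3 to day 1 ratio of 0.426 (0.377 to 0.483) and a day 7 to day 3 ratio of 1.47 (1.31 to 1.64). Day 1 stood above the other 3 libraries for both genes, but in the 16 day 1 cells above the 5% line Cxcl2 was close to sham, at 6299.7 CPM, and Il1b stood at 7996 CPM. Il1b was met after thinning in 7 of 13 cells in sham (53.8%, 25.1 to 80.8), 21 of 24 cells on day 1 (87.5%, 67.6 to 97.3), 36 of 48 cells on day 3 (75.0%, 60.4 to 86.4) and 16 of 21 cells on day 7 (76.2%, 52.8 to 91.8), and these intervals overlap. All members, with the mixed cells, gave a wider gap for the list, 0.163 (0.153 to 0.173) against 0.426 (0.393 to 0.462) for day 3 over day 1.

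Over all single-class members, the macrophage inflammatory proteins Ccl3 and Ccl4 were highest on day 1. Ccl4 stood at 90.7 CPM in sham, 1429 CPM on day 1, 54.2 CPM on day 3 and 12.2 CPM on day 7, and its 55 UMIs of day 1 came from 6 cells, of which 1 gave 41.8%. In the 16 day 1 cells with at least 5% of UMIs from the rule markers, Ccl4 had 1 UMI (40.4 CPM), below sham, so that this difference rested on cells with few neutrophil transcripts. Ccl3 stood at 18.1 CPM in sham, 805 CPM on day 1, 27.1 CPM on day 3 and 12.2 CPM on day 7 and at 363 CPM in those 16 cells. Both genes were abundant in microglia-marker cells, Ccl4 at 2494 CPM in sham, 4909 CPM on day 1, 4284 CPM on day 3 and 1944 CPM on day 7. The microglia list in single-class members stood at 468 CPM on day 1 and 61.0 to 127 CPM in the other libraries (162 CPM in the 16 day 1 cells above the line), and its part was not tested. Tnf (tumour necrosis factor) had 11 UMIs on day 1, 17 on day 3 and 0 in sham and on day 7. Il1a had 0 UMIs in every library. Osm (oncostatin M) was lower on day 1 than in sham, at 381 CPM in sham, 26.0 CPM on day 1, 88.1 CPM on day 3 and 255 CPM on day 7. Ccl6, a further CC chemokine, stood at 944 CPM in sham, 624 CPM on day 1, 410.1 CPM on day 3 and 1605 CPM on day 7, and at 969 CPM in the 16 day 1 cells above the 5% line, where its order relative to sham turned. Among these genes, of 8 ranked genes none was past 2-fold higher and 5 past 2-fold lower on day 3 than on day 1 (median log2 ratio -1.43), and of 4 ranked genes 2 were past 2-fold higher and 0 past 2-fold lower on day 7 than on day 3 (median log2 ratio 0.85). Over all ranked genes, 24.8% were lower on day 3 than on day 1 and 9.45% higher on day 7 than on day 3.

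Genes induced through NF-kB that feed back on it (such as Nfkbia, Tnfaip3 and Zfp36) followed the cytokines, at 4374 CPM (3839 to 4962) in sham, 5768 CPM (5034 to 6578) on day 1, 2681 CPM (2497 to 2875) on day 3 and 4328 CPM (3890.4 to 4802) on day 7. By gene, of 8 ranked genes none was past 2-fold higher and 4 past 2-fold lower on day 3 than on day 1 (median log2 ratio -1.05), where 24.8% of all ranked genes were lower. In the 16 day 1 cells above the 5% line the list stood at 4523 CPM. Tnfaip2 stood at 907 CPM in sham, 1169 CPM on day 1, 383 CPM on day 3 and 657 CPM on day 7, and Zfp36, which marks cytokine mRNA for decay, at 454 CPM in sham, 779 CPM on day 1, 237 CPM on day 3 and 948 CPM on day 7. Survival genes (Mcl1, the Bcl2a1 family, Pim1 and others) stood at 2468 CPM (2071 to 2919.6) in sham, 4131 CPM (3514 to 4825) on day 1, 2047 CPM (1887 to 2217) on day 3 and 2760.0 CPM (2413 to 3143) on day 7, highest on day 1 over all single-class members but not in the 16 day 1 cells above the 5% line, which held 2342 CPM. Pim1, a kinase induced by CSF3R signalling, stood at 762 CPM in sham, 1689 CPM on day 1, 793 CPM on day 3 and 754 CPM on day 7, and at 1050.0 CPM in those 16 cells. The Bcl2a1 genes are near-identical copies and their counts are uncertain.

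Receptors that steer neutrophils towards chemoattractants were highest on day 1 as a sum. The list stood at 1724 CPM (1395 to 2108) in sham, 3378 CPM (2822 to 4011) on day 1, 1647 CPM (1504 to 1800.4) on day 3 and 2225 CPM (1914 to 2572) on day 7. Cxcr4, the receptor for CXCL12 that is known for marrow retention and for aged neutrophils, stood at 272 CPM in sham, 857 CPM on day 1, 115 CPM on day 3 and 219 CPM on day 7, a day 3 to day 1 ratio of 0.134 (0.0808 to 0.224). After thinning it was met in 2 of 13 cells in sham (15.4%, 1.92 to 45.4), 13 of 24 cells on day 1 (54.2%, 32.8 to 74.4), 4 of 48 cells on day 3 (8.33%, 2.32 to 19.98) and 7 of 21 cells on day 7 (33.3%, 14.6 to 57.0). The 16 day 1 cells above the 5% line held 485 CPM, still the highest of the 4 libraries. Ptafr, the receptor of platelet-activating factor, stood at 145 CPM in sham, 519.6 CPM on day 1, 214 CPM on day 3 and 97.3 CPM on day 7, and C5ar1, the receptor of complement C5a, at 472 CPM in sham, 779 CPM on day 1, 478 CPM on day 3 and 365 CPM on day 7. Fpr1 and Fpr2, receptors of formyl peptides, had few UMIs, with 2 and 5 on day 1. Over the list, of 8 ranked genes none was past 2-fold higher and 3 past 2-fold lower on day 3 than on day 1 (median log2 ratio -0.49), where 24.8% of all ranked genes were lower.

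Adhesion genes, which let neutrophils roll and then hold to the vessel wall, stood at 2559 CPM (2154 to 3018) in sham, 1949 CPM (1533 to 2443) on day 1, 2173 CPM (2008 to 2348) on day 3 and 2748 CPM (2401 to 3130.4) on day 7. Itgam, the alpha chain of the Mac-1 integrin, stood at 272 CPM in sham, 104 CPM on day 1, 237 CPM on day 3 and 498 CPM on day 7, and Itgb2, its beta chain, at 417 CPM in sham, 234 CPM on day 1, 224 CPM on day 3 and 279.6 CPM on day 7. Above the 5% line Itgb2 stood at 202 CPM on day 1 and 234 CPM on day 3. Selplg, the ligand of P-selectin, stood at 526 CPM in sham, 935 CPM on day 1, 799.9 CPM on day 3 and 705 CPM on day 7. In this list, of 6 ranked genes 2 were past 2-fold higher and 0 past 2-fold lower on day 3 than on day 1 (median log2 ratio 0.42). The summed day 3 to day 1 ratio was 1.11 (0.877 to 1.44) in single-class members and 0.660 (0.544 to 0.807) over all members.

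The genes of the phagocyte NADPH oxidase, which makes superoxide, stood at 5263 CPM (4675 to 5905) in sham, 3819 CPM (3227 to 4489) on day 1, 4681 CPM (4437 to 4934) on day 3 and 5240.3 CPM (4757 to 5759) on day 7. Cyba and Rac2 differed by less than 2-fold between every pair of days, Cyba at 1579 CPM in sham, 1403 CPM on day 1, 1624 CPM on day 3 and 1264 CPM on day 7 and Rac2 at 1579 CPM in sham, 1403 CPM on day 1, 1668 CPM on day 3 and 1435 CPM on day 7. Cybb, the catalytic chain, stood at 309 CPM in sham, 26.0 CPM on day 1, 230.5 CPM on day 3 and 535 CPM on day 7, where day 1 rested on 1 UMI of Cybb. Among these genes, of 6 ranked genes 2 were past 2-fold higher and 0 past 2-fold lower on day 7 than on day 1 (median log2 ratio 0.63). The day 7 to day 3 ratio of 1.12 (1.00 to 1.25) turned to 0.927 with median centring, and the day 3 to day 1 ratio was 1.23 (1.03 to 1.46) in single-class members and 0.727 (0.635 to 0.835) over all members. Receptors for danger and pathogen signals stood at 3321 CPM (2857 to 3839) in sham, 3689 CPM (3107 to 4348) on day 1, 3037 CPM (2841 to 3242) on day 3 and 3100.4 CPM (2732 to 3505) on day 7, and none of 9 ranked genes was past 2-fold on day 3 against day 1. Their ratio of day 3 over day 1, 0.823 (0.689 to 0.990), turned to 1.14 with median centring and 1.15 without the rule markers in the totals. Cd14, the co-receptor for bacterial lipopolysaccharide, stood at 472 CPM in sham, 1195 CPM on day 1, 573 CPM on day 3 and 292 CPM on day 7.

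Interferon-response genes fell into groups with different orders over the libraries. The summed list was 16079 CPM (15038 to 17174) in sham, 13639.9 CPM (12498 to 14858) on day 1, 16385 CPM (15926 to 16853) on day 3 and 6419.7 CPM (5884 to 6991) on day 7. Ifitm1, a membrane protein that blocks viral entry, stood at 617 CPM in sham, 6599 CPM on day 1, 6426 CPM on day 3 and 657 CPM on day 7, so that days 1 and 3 exceeded sham and day 7. The intervals of days 1 and 3, which leave out the spread between cells, did not overlap those of sham and day 7. The day 7 to day 3 ratio was 0.102 (0.0765 to 0.134). Other kept cells also held less Ifitm1 on day 7, at 137 CPM on day 1, 459 CPM on day 3 and 57.4 CPM on day 7. Ifitm2 was likewise higher on days 1 and 3 than in sham and on day 7, at 1434 CPM in sham, 5118 CPM on day 1, 3234 CPM on day 3 and 936 CPM on day 7. Ifitm3 did not, at 5880 CPM in sham, 1403 CPM on day 1, 4288 CPM on day 3 and 2505 CPM on day 7. These 3 genes are neighbours and similar in sequence, so their separate counts are uncertain.

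Most other genes of the list were highest in sham, among them Isg15, Rsad2, Irf7, Ifit1, Ifit3, Oasl2 and Slfn4. Isg15, a ubiquitin-like modifier, stood at 1597 CPM in sham, 129.9 CPM on day 1, 559 CPM on day 3 and 426 CPM on day 7. Rsad2 (viperin) had 49, 0, 44 and 10 UMIs, and stood at 889 CPM in sham, 0 CPM on day 1, 149 CPM on day 3 and 122 CPM on day 7. Irf7, the master regulator of type I interferon, stood at 944 CPM in sham, 26.0 CPM on day 1, 129 CPM on day 3 and 207 CPM on day 7. Slfn4, a schlafen gene of myeloid cells, stood at 2305 CPM in sham, 208 CPM on day 1, 725 CPM on day 3 and 1167 CPM on day 7, and 0.315 times sham on day 3 (0.252 to 0.395). Other kept cells showed the same order for Isg15, at 1078 CPM in sham, 98.5 CPM on day 1, 257 CPM on day 3 and 181 CPM on day 7, whereas Slfn4 was near 0 in them. The day 1 to sham ratio of Isg15 was 0.0813 (0.0258 to 0.197) in members and 0.0914 in other cells. In members, Isg15 was met after thinning in 9 of 13 cells in sham (69.2%, 38.6 to 90.9), 2 of 24 cells on day 1 (8.33%, 1.03 to 27.0), 20 of 48 cells on day 3 (41.7%, 27.6 to 56.8) and 5 of 21 cells on day 7 (23.8%, 8.22 to 47.2), and in endothelial-marker cells thinned the same way it was met in 71.5% in sham, 15.9% on day 1, 30.9% on day 3 and 21.5% on day 7. Gbp2, an interferon gamma target, had 76 UMIs on day 3, 0 on day 1 and 1 on day 7. By gene, of 11 ranked genes 8 were past 2-fold higher and 0 past 2-fold lower on day 3 than on day 1 (median log2 ratio 1.59), of 6 ranked genes 2 were past 2-fold higher and 2 past 2-fold lower on day 7 than on day 1 (median log2 ratio 0.63), and of 11 ranked genes none was past 2-fold higher and 4 past 2-fold lower on day 7 than on day 3 (median log2 ratio -0.68).

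As sums, the lysosome and iron list was highest on day 1 and the MHC list, genes of antigen presentation, was lowest. The lysosome and iron list stood at 15498 CPM (14476 to 16574) in sham, 29982 CPM (28277 to 31763) on day 1, 14893 CPM (14456 to 15340.2) on day 3 and 11307 CPM (10592 to 12058) on day 7. Fth1, ferritin heavy chain, stood at 9509.6 CPM in sham, 21122 CPM on day 1, 10304 CPM on day 3 and 7988 CPM on day 7, and day 1 was 2.22 (1.99 to 2.48) times sham. The other kept cells held 9334 CPM in sham, 13170.5 CPM on day 1, 13245 CPM on day 3 and 9059 CPM on day 7. Cd63, a tetraspanin of azurophil granules and late endosomes, stood at 90.7 CPM in sham, 649.5 CPM on day 1, 173 CPM on day 3 and 109 CPM on day 7. MHC genes stood at 9019.6 CPM (8244 to 9849) in sham, 2806 CPM (2302 to 3388) on day 1, 4203 CPM (3972 to 4444) on day 3 and 6152 CPM (5628 to 6712) on day 7, lowest on day 1. H2-D1, a class I heavy chain, stood at 5862 CPM in sham, 1637 CPM on day 1, 2891 CPM on day 3 and 3283 CPM on day 7, and B2m, the class I light chain, at 1434 CPM in sham, 624 CPM on day 1, 674 CPM on day 3 and 1496 CPM on day 7. Class II genes were almost empty, with 0 UMIs of H2-Aa and H2-Ab1 in every library. In the lysosome and iron list, of 9 ranked genes none was past 2-fold higher and 4 past 2-fold lower on day 3 than on day 1 (median log2 ratio -0.89), where 24.8% of all ranked genes were lower. In the MHC list, of 3 ranked genes 2 were past 2-fold higher and 0 past 2-fold lower on day 7 than on day 1 (median log2 ratio 1.20). Other kept cells had lower H2-D1 on day 1 too, at 1366 CPM in sham, 515 CPM on day 1, 1405 CPM on day 3 and 1152 CPM on day 7.

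Immediate-early genes, which many stimuli switch on within minutes, stood at 8167 CPM (7429 to 8957) in sham, 8522 CPM (7624 to 9496) on day 1, 4396 CPM (4160.1 to 4642) on day 3 and 9557 CPM (8900.1 to 10249) on day 7. Fos stood at 1434 CPM in sham, 208 CPM on day 1, 275 CPM on day 3 and 1581 CPM on day 7, and at 3639 CPM in sham, 1789.7 CPM on day 1, 2465 CPM on day 3 and 4296 CPM on day 7 in the other kept cells. Dusp1 and Btg2 were higher on day 7 than on day 3, Dusp1 at 2237 against 861 CPM and Btg2 at 1021 against 407 CPM. Of 10 ranked genes, 5 were past 2-fold higher on day 7 than on day 3 and 0 past 2-fold lower (median log2 ratio 1.06). Over all genes ranked for these days, 9.45% were past 2-fold higher and the median log2 ratio was 0.27. The lists of glycolysis and hypoxia, lipid mediators and genes of late tissue neutrophils gave day 3 to day 1 ratios of 1.26 (1.06 to 1.49), 1.03 (0.853 to 1.24) and 1.06 (0.717 to 1.61), none of which was past 2-fold. Ptgs2 (cyclooxygenase 2) was the one lipid mediator past 2-fold on day 7 against day 3, at 328 against 37.3 CPM. Siglecf, a marker described on late tissue neutrophils, had 2 UMIs on day 1 and 0 in the other libraries. Granulocyte transcription factors stood at 6370 CPM (5721 to 7073) in sham, 9665 CPM (8708 to 10699) on day 1, 6986 CPM (6687 to 7294) on day 3 and 7271 CPM (6699.6 to 7878) on day 7, with Cebpb at 3629.6 CPM in sham, 6365 CPM on day 1, 4023 CPM on day 3 and 3550.3 CPM on day 7 and 0 UMIs of Gfi1. Their ratio of day 3 over day 1, 0.723 (0.647 to 0.809), turned to 1.01 without the rule markers in the totals. Cell cycle genes were near 0, with 36.3 to 234 CPM over 10 genes.

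**Figure D3:**
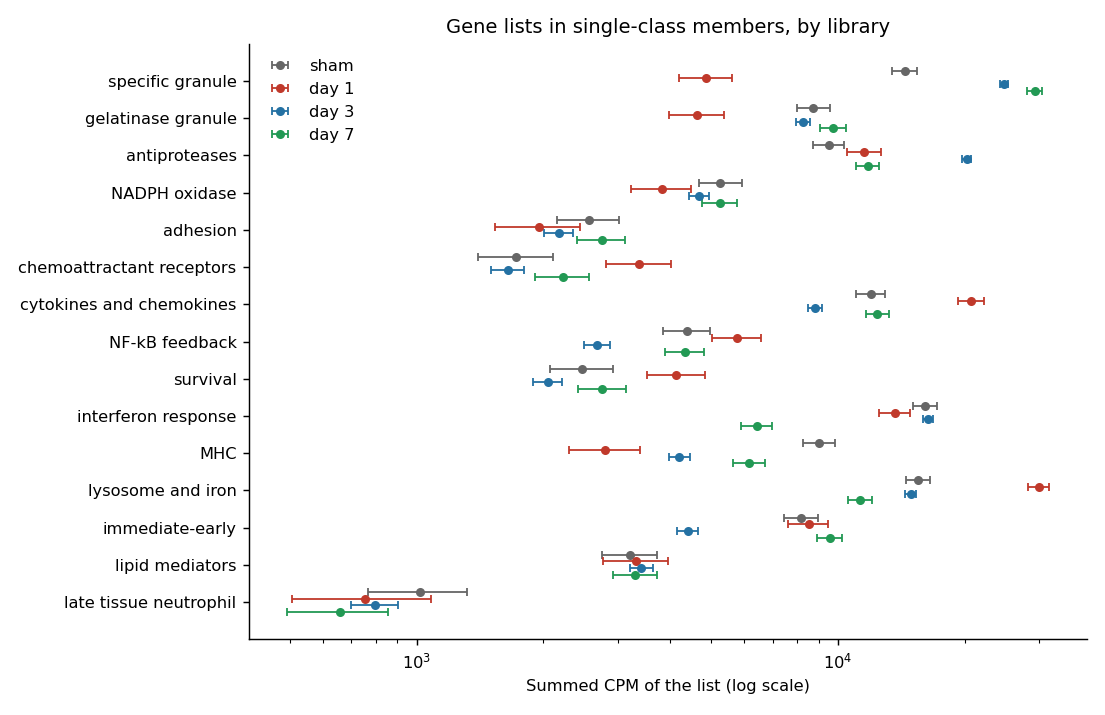
Summed levels of 15 gene lists in single-class members by library (points, CPM on a log scale, bars are exact 95% Poisson intervals). Day 1 (red) lies lowest for the specific granule, gelatinase granule and MHC lists and highest for the cytokine, survival, receptor and lysosome and iron lists, and the lipid mediator list overlaps in all 4 libraries.

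Beyond the lists, the ranking named further genes. Higher on day 3 than on day 1 were Lyz2 (lysozyme), at 6101 against 546 CPM, Ifitm6, at 1959 against 182 CPM, and Prok2 (prokineticin 2, a secreted peptide of granulocytes), at 353 CPM against 0 UMIs. Lyz2 and Ifitm6 were high on day 7 as well, with log2 ratios over day 1 of 3.37 and 3.18. Prok2 had 0 UMIs on day 7. Upp1, uridine phosphorylase, likewise stood at 417 CPM on day 3 and 12.2 CPM on day 7. Day 7 exceeded both earlier days for Thbs1 (thrombospondin 1), with 48 UMIs from 7 cells and log2 ratios of 3.66 over day 1 and 2.86 over day 3. Higher on day 1 than on day 3 were Mrpl52, at 1065 against 10.2 CPM, Gngt2, at 831 against 27.1 CPM, and Cdkn1a (the cell cycle inhibitor p21), at 546 against 6.78 CPM. Mif stood at 546 CPM on day 1 and had 0 UMIs on day 7.

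Several ranked genes came from 1 cell. Col1a1 and Col3a1 on day 1, with 48 and 20 UMIs, were each found in 1 cell. The cell with most Mt1 (metallothionein 1) gave 84.8% of its day 1 UMIs, and without it the log2 ratio of day 7 over day 1 went from -3.34 to -0.85. For Rgs1 the top cell gave 66.7% on day 1, and for Olfm4, a specific granule protein, 81.2% on day 3. Ifitm1 and Wfdc17, in contrast, were met in 44 and 45 of 50 day 3 cells, where the top cell gave 6.01% and 10.0% of UMIs. Their log2 ratios of day 7 over day 3 were -3.20 and -2.54.

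Within libraries, single-class members ranged widely in granule and cytokine content. The specific granule list made up a median of 0.270% of a cell's UMIs in sham, 0.273% on day 1, 0.640% on day 3 and 0.443% on day 7, and at most 4.17%, 1.93%, 21.8% and 11.2%. Cells with at least 5% numbered 4 on day 3 and 2 on day 7. In them the cytokine list made up at most 0.842% on day 3 and 0.454% on day 7, while the library medians were 0.726% and 1.32%. The median of the cytokine list in these cells was 0.132% on day 3 and 0.335% on day 7. Cells with at least 5% of the cytokine list numbered 3 on day 1, 2 on day 7 and 0 in sham and on day 3. Day 7 was thus the only library with cells past 5% on each list, with 2 for each. No cell had 5% or more of both lists, which with so few cells does not show that the lists exclude each other.

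**Figure D4:**
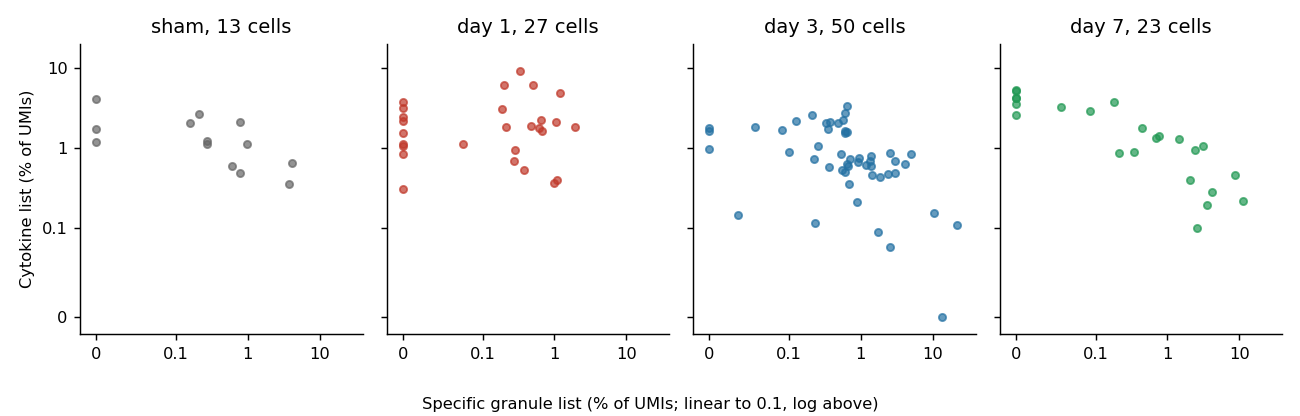
Each point is a single-class member, by library, with the specific granule list on the x axis and the cytokine list on the y axis (both as % of the cell's UMIs, linear to 0.1 and logarithmic above). Cells at 5% or more on the x axis in the day 3 and day 7 panels have at most 0.842% on the y axis, and the day 1 panel holds no cell above 1.93% on the x axis.

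Other myeloid cells of the same libraries give a scale for these levels. Monocyte-marker cells (29, 57, 33 and 37 cells by library, with at least 3 monocyte markers) held the specific granule list at 799 CPM in sham, 1258 CPM on day 1, 994 CPM on day 3 and 2194 CPM on day 7. Microglia-marker cells (156, 831, 483 and 362 cells) held it at 7.74 CPM in sham, 47.0 CPM on day 1, 196 CPM on day 3 and 132 CPM on day 7. The level of Il1b in monocyte-marker cells was 56.9 CPM in sham, 451 CPM on day 1, 600.0 CPM on day 3 and 284 CPM on day 7, and in microglia-marker cells 160.1 CPM in sham, 583 CPM on day 1, 250.3 CPM on day 3 and 166 CPM on day 7, below the members in each library. Cxcl2 stood at 816 CPM in sham, 3362 CPM on day 1, 1006 CPM on day 3 and 869 CPM on day 7 in monocyte-marker cells, likewise highest on day 1. Fth1 on day 1 was 34644 CPM in monocyte-marker cells and 14372 CPM in microglia-marker cells, both above their own sham levels of 7559 and 7226 CPM. These classes were drawn by markers as the members were, and no difference between classes was tested.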

How the data were processed

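Droplet single-cell RNA-seq of 4 libraries (sham and days 1, 3 and 7 after tMCAO) was used. The authors deposited UMI count matrices, unnormalised and with empty droplets removed. The submitters' processing notes name Cell Ranger 3.0.1, Seurat 4.1.2 and the build GRCh38, whereas the file headers name Cell Ranger 4.0.0 and the features carry mouse gene identifiers, 31011 of 31053 of which are in GENCODE vM21 (GRCm38). How reads that fit several near-identical genes were counted is not given in the sources used here.

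Cells were kept at 200 to 6000 genes and at most 10% mitochondrial UMIs (the study's own limit was 3000 genes, tried as an alternative), and members were picked by the marker rule with no clustering. Members, gene lists and comparisons were chosen with earlier results of these data known. Scrublet (in scanpy 1.11.5) was run per library and its calls were kept in. A member was mixed when it had a UMI of at least 3 markers of 1 of 14 other classes. Counts were summed over members of a library and given as CPM. With 1 library per group no test was run and no p-value is given. Genes with at least 100 CPM in either library and 20 UMIs over both were ranked where each library had at least 20 members, with 50 CPM added. Against a group with 0 UMIs a fold was computed against 3 UMIs over that group. Shares of cells with a UMI were compared after thinning each cell to 1000 UMIs, shallower cells left out.

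Named genes were the rule and excluded genes, the 15 genes with the highest lowest-of-libraries ratio over all other kept cells (at least 200 CPM), the 10 furthest in each direction per comparison among genes no more than 2 times as high in other kept cells, and genes of the lists. 28 alternatives were planned and 5 were added after seeing the data. Gene ratios past 2-fold, intervals, shares of cells and the thinning were tried on simulated counts, which held no spread between cells. List counts were not simulated. Python 3.11.15, numpy 2.4.6, pandas 2.3.3, scipy 1.17.1 and matplotlib 3.10.9 were used. Promoter sequences were from RefSeq (GRCm38.p6).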

Additional observations from a re-analysis of the deposited data

How the results depend on the processing

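The values of all members are the reference here. They gave shares of 0.245% on day 1 and 1.34% on day 3, 388, 320 and 238 genes past 2-fold for day 3 over day 1, day 7 over day 1 and day 7 over day 3, specific granule ratios of 3.79 for day 3 over day 1, 3.73 for day 7 over day 1, 0.984 for day 7 over day 3, and cytokine ratios of 0.163 for day 3 over day 1, 0.393 for day 7 over day 1, 2.41 for day 7 over day 3. With at least 4 of the 5 markers required, the share of kept cells was 0.138% on day 1 and 0.584% on day 3. For the specific granule list the ratio was 5.82 for day 3 over day 1, 0.612 for day 7 over day 3. The ratio of the cytokine list was 0.335 for day 3 over day 1, 0.457 for day 7 over day 1, 1.36 for day 7 over day 3. Here the direction turned for further neutrophil markers day 3 over day 1 (0.772 to 1.22), further neutrophil markers day 7 over day 3 (1.63 to 0.920), NADPH oxidase day 7 over day 3 (1.48 to 0.854), adhesion day 7 over day 3 (1.75 to 0.964). Without the mixed members, the share of kept cells was 0.162% on day 1 and 0.443% on day 3. Specific granule genes had a ratio of 5.10 for day 3 over day 1, 6.03 for day 7 over day 1, 1.18 for day 7 over day 3. Ratios of the cytokine list were 0.426 for day 3 over day 1, 0.600 for day 7 over day 1, 1.41 for day 7 over day 3. Here the direction turned for further neutrophil markers day 3 over day 1 (0.772 to 1.48), NADPH oxidase day 3 over day 1 (0.727 to 1.23), antiproteases day 7 over day 1 (0.777 to 1.02), adhesion day 3 over day 1 (0.660 to 1.11). With single-class members that had at least 5% of UMIs from the rule markers, a line chosen after seeing the data, the share of kept cells was 0.0957% on day 1 and 0.425% on day 3. 140 genes were past 2-fold for day 7 over day 3. In specific granule genes the ratio was 4.48 for day 7 over day 1, 1.13 for day 7 over day 3. The summed cytokine ratio was 0.549 for day 3 over day 1, 0.755 for day 7 over day 1, 1.38 for day 7 over day 3. Here the direction turned for further neutrophil markers day 3 over day 1 (0.772 to 1.29), NADPH oxidase day 3 over day 1 (0.727 to 1.20), adhesion day 3 over day 1 (0.660 to 1.16). With none of the excluded genes allowed, the share of kept cells was 1.09% on day 3. For the specific granule list the ratio was 4.54 for day 3 over day 1, 2.75 for day 7 over day 1, 0.607 for day 7 over day 3. The ratio of the cytokine list was 0.190 for day 3 over day 1, 2.13 for day 7 over day 3. With 10 CPM added, 614, 503 and 447 genes were past 2-fold for day 3 over day 1, day 7 over day 1 and day 7 over day 3. With 200 CPM added, 109, 86 and 49 genes were past 2-fold for day 3 over day 1, day 7 over day 1 and day 7 over day 3. With a floor of 200 CPM, 233, 209 and 144 genes were past 2-fold for day 3 over day 1, day 7 over day 1 and day 7 over day 3. With at most 3000 genes per cell, the limit in the study's methods, 519 genes were past 2-fold for day 7 over day 3. Specific granule genes had a ratio of 4.62 for day 3 over day 1, 7.04 for day 7 over day 1, 1.52 for day 7 over day 3. Ratios of the cytokine list were 0.263 for day 3 over day 1, 0.675 for day 7 over day 1. Here the direction turned for further neutrophil markers day 3 over day 1 (0.772 to 1.17), antiproteases day 7 over day 1 (0.777 to 1.26). With at most 5% mitochondrial UMIs, 361 genes were past 2-fold for day 7 over day 3. In specific granule genes the ratio was 4.33 for day 3 over day 1, 4.93 for day 7 over day 1, 1.14 for day 7 over day 3. The summed cytokine ratio was 0.438 for day 7 over day 1, 2.59 for day 7 over day 3. Without the cells Scrublet marked, 488 genes were past 2-fold for day 7 over day 3. For the specific granule list the ratio was 3.15 for day 3 over day 1, 1.29 for day 7 over day 3. The ratio of the cytokine list was 0.484 for day 7 over day 1, 3.09 for day 7 over day 3. Here the direction turned for antiproteases day 7 over day 3 (0.827 to 1.05). With the mean of per-cell CPM, 550 genes were past 2-fold for day 7 over day 3. Specific granule genes had a ratio of 2.51 for day 3 over day 1, 1.41 for day 7 over day 3. Ratios of the cytokine list were 0.183 for day 3 over day 1, 0.717 for day 7 over day 1, 3.92 for day 7 over day 3. Here the direction turned for antiproteases day 7 over day 1 (0.777 to 1.03), antiproteases day 7 over day 3 (0.827 to 1.03). With median-of-ratios scaling, the specific granule ratio was 4.42 for day 3 over day 1. In cytokine genes the ratio was 0.190 for day 3 over day 1, 0.423 for day 7 over day 1. Without the member with the most UMIs of the list in each library, an alternative chosen after seeing the data, the specific granule ratio was 3.02 for day 7 over day 1, 0.890 for day 7 over day 3. Over all alternatives, 84 list ratios stayed within their interval, 140 moved beyond it and 16 turned direction. A turn is counted where the interval of the reference ratio excluded 1, which that of the specific granule list for day 7 over day 3 did not. The cause of these shifts was not tested. Specific granule ratios over day 1 stayed above 1 and cytokine ratios over day 1 stayed below 1 under every alternative run, while the specific granule ratio of day 7 over day 3 lay on both sides of 1. At the 5% line 16 day 1 cells were left, under the 20 needed, so genes were not ranked against day 1. No paired analysis was possible because each condition had 1 library.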

Other observations

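Genes of glycolysis and the response to hypoxia, on which neutrophils draw for energy, stood at 4646 CPM (4094 to 5251) in sham, 4001 CPM (3394 to 4685) on day 1, 5027 CPM (4774 to 5289) on day 3 and 3952 CPM (3534 to 4405) on day 7 in single-class members, with day 3 highest. Pkm, pyruvate kinase, stood at 871 CPM in sham, 779 CPM on day 1, 799.9 CPM on day 3 and 632 CPM on day 7, and Slc2a3, a glucose transporter, at 381 CPM in sham, 26.0 CPM on day 1, 153 CPM on day 3 and 328 CPM on day 7. The list of genes described in late tissue neutrophils stood at 1016 CPM (768 to 1319.8) in sham, 753 CPM (505 to 1082) on day 1, 797 CPM (698 to 905) on day 3 and 657 CPM (493 to 857) on day 7, and at 485 CPM in the 16 day 1 cells with at least 5% of UMIs from the rule markers. Il1rn, the receptor antagonist of interleukin-1, stood at 181 CPM in sham, 156 CPM on day 1, 67.8 CPM on day 3 and 97.3 CPM on day 7, and Hdc, which makes histamine, at 1434 CPM in sham, 883 CPM on day 1, 986 CPM on day 3 and 1058 CPM on day 7.

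Lymphoid markers were scarce in single-class members. T or NK cell markers had 23 UMIs on day 3, of which 1 lay in the 48 cells with at least 5% of UMIs from the rule markers, and 0 in the other libraries. B cell markers had 8, 1, 26 and 3 UMIs in sham and on days 1, 3 and 7.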
